A study of Mus musculus with 16 samples.

Results

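The mitochondrially encoded genes are the genes of the mitochondrial chromosome, and their members here are the rows of the count table whose symbol starts with mt-. These are 34 of 36950 genes: 13 protein genes, 2 ribosomal RNA (rRNA) genes and 19 transfer RNA (tRNA) genes. The GENCODE M21 annotation of GRCm38 (mm10) lists 37 genes on that chromosome, and 3 of them (mt-Td, mt-Tg and mt-Ty) are not analysed here. All counts are unique molecular identifiers (UMIs), tags meant to mark each captured RNA molecule once (how they were collapsed is not given in the sources used here), in 11492 single cells from the left ventricle of 16 male mice.

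The mice belong to a model of transverse aortic constriction (TAC), a surgical narrowing of the aorta that loads the heart with pressure. The stages are given in weeks: 0w, 2w and 11w had 2 mice each, 5w had 7 and 8w had 3. The labels name neither the strain nor the age, nor whether the 0w mice had surgery. Of the 2 digestion protocols, the one meant to enrich myocytes used collagenase II with protease XXIV, and the one meant for the remaining cells used a papain enzyme. Polyadenylated RNA was captured. The cells came on 12 plates, named A to L below by their stage, and 11 plates held 1 stage each. Plate E held 5w replicate 1 and 8w replicate 1, so stage and plate cannot be told apart elsewhere. The early group below is the mice of 0w and 2w, and the late group those of 8w and 11w.

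Mitochondrial DNA is small and circular, and it is transcribed from both strands into long precursors. The tRNAs lie between the other genes, and their excision releases most of the rRNAs and messenger RNAs. Its proteins are core subunits of the respiratory chain: the ND proteins of complex I, cytochrome b of complex III, the CO proteins of complex IV, and ATP6 and ATP8 of the ATP synthase (complex V). All other subunits are encoded in the nucleus, and heart muscle is among the tissues richest in mitochondria. The share of mitochondrial UMIs is also a common quality measure of single cells, since it can be high in damaged cells.

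The sequences below are those of the tRNA genes that the counts turn on, from the GENCODE M21 genome sequence, GRCm38, written 5′ to 3′ on the strand of the gene. They are the 5 tRNA genes with the most UMIs and mt-Tk, which had 0. Capitals mark the first of the longest runs of A in each gene, shown because the libraries were made from polyadenylated RNA.
mt-Tq: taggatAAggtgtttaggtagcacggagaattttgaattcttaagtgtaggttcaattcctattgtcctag
mt-Tp: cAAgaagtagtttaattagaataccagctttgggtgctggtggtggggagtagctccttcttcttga
mt-Tn: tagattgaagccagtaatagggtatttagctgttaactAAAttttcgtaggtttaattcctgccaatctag
mt-Te: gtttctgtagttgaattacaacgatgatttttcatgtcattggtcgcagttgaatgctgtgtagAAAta
mt-Tm: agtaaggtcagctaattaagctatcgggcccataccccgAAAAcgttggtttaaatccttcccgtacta
mt-Tk: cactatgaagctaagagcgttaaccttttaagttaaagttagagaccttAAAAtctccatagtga

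mt-Tq lies at chrM:3772-3842, mt-Tp at chrM:15356-15422, mt-Tn at chrM:5089-5159 and mt-Te at chrM:14071-14139, all on the minus strand. mt-Tm lies at chrM:3845-3913 and mt-Tk at chrM:7700-7764, both on the plus strand. The longest run of A was 2 bases in mt-Tq and mt-Tp, the 2 highest tRNA genes, and 4 bases in mt-Tk.

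A second set of sequences shows how closely nuclear copies match some of the protein genes. Pieces of mitochondrial DNA have been copied into the nuclear genome, and the copies Gm28661 on chromosome 1 and Gm13341 and Gm13340 on chromosome 2 are nearly identical to mt-Co2 and mt-Co1, subunits of complex IV. The windows are 60 bases from the 3′ end of each mitochondrial gene and the matching bases of the copy, and capitals mark differing bases.
mt-Co2: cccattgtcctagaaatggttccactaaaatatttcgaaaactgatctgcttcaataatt
Gm28661: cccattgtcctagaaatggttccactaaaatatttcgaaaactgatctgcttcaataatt
Gm13341: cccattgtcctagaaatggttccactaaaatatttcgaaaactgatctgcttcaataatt
mt-Co1: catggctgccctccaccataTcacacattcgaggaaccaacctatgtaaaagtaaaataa
Gm13340: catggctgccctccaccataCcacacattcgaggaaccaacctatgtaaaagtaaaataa

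The mt-Co2 window is chrM:7634-7693 and its copies are chr1:24614885-24614944 and chr2:22587294-22587353, both on the minus strand. The mt-Co1 window is chrM:6813-6872 and its copy is chr2:22588103-22588162 on the minus strand. In these windows mt-Co2 differed from either copy at 0 of 60 bases and mt-Co1 from Gm13340 at 1 of 60.

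Mitochondrial genes took 56.0% of all 751212917 UMIs. The rRNA genes held 54.6% of the mitochondrial UMIs, the protein genes 44.7% and the tRNA genes 0.732%. mt-Rnr2, the large ribosomal RNA, had 159088448 UMIs and mt-Rnr1, the small one, 70795468. Both rRNAs were therefore above every protein gene.

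Among the protein genes, mt-Nd4 of complex I had 54436623 UMIs, 28.9% of those of the 13. mt-Nd1 had 38224847, mt-Nd2 30675911, mt-Nd5 12178697, mt-Nd6 4689648, mt-Nd4l 3614385 and mt-Nd3 438145 UMIs, so that the 7 complex I genes held 76.7% of the protein gene UMIs. mt-Cytb, the single complex III gene, had 31155357 UMIs or 16.6%. Of the 3 complex IV genes, mt-Co1 had 12582317 UMIs, mt-Co3 86935 and mt-Co2 385, together 6.74%. The shares of the complexes count only the genes' own rows. The nuclear copies Gm13340 of mt-Co1 and Gm13341 of mt-Co2 had 24257245 and 7217039 UMIs, which these shares leave out. The complex V genes mt-Atp6 and mt-Atp8 had 520 and 60 UMIs in all cells.

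Levels were also expressed per kilobase (kb) of gene and 1000 mitochondrial UMIs. If each captured molecule is counted once, UMIs need not rise with gene length, and this scale then places short genes too high. On that scale mt-Rnr2 stood at 239 and mt-Rnr1 at 176, followed by mt-Nd1 at 94.9, mt-Nd4 at 93.8, mt-Nd2 at 70.2 and mt-Cytb at 64.7. mt-Nd4l stood at 28.9, mt-Nd6 at 21.5, mt-Co1 at 19.3, mt-Nd5 at 15.9, mt-Nd3 at 2.99 and mt-Co3 at 0.263. mt-Atp6, mt-Co2 and mt-Atp8 came last, at 0.00181, 0.00134 and 0.000699. Neighbours on the genome did not stand at like levels: mt-Nd4l and mt-Nd4 overlap and are carried by 1 messenger RNA, yet stood at 28.9 and 93.8.

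One tRNA gene, mt-Tq (glutamine), had 2223635 UMIs, 72.1% of all tRNA UMIs. By UMIs it stood between mt-Nd4l (3614385) and mt-Nd3 (438145). Per kb and 1000 mitochondrial UMIs, a scale that divides by its 71 bases, it stood at 74.4, between mt-Nd4 and mt-Nd2. mt-Tp (proline) had 224823 UMIs, mt-Tn (asparagine) 159087, mt-Te (glutamate) 112855 and mt-Tm (methionine) 89009. The other 14 tRNA genes each held 0.0171% or less of the mitochondrial UMIs, with 88 UMIs for mt-Ts1 and 0 for mt-Tk, and the rest were mt-Ta, mt-Tc, mt-Ti, mt-Tv, mt-Ts2, mt-Tl2, mt-Tt, mt-Tl1, mt-Tw, mt-Tr, mt-Th and mt-Tf. The 7 tRNA genes of the minus strand held 92.3% of the tRNA UMIs and made up 6 of the 7 highest. Whether reads were counted by strand is not given in the sources used here. If strand was not used, reads of a tRNA gene and of a precursor crossing it on the other strand cannot be told apart.

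**Figure D1:**
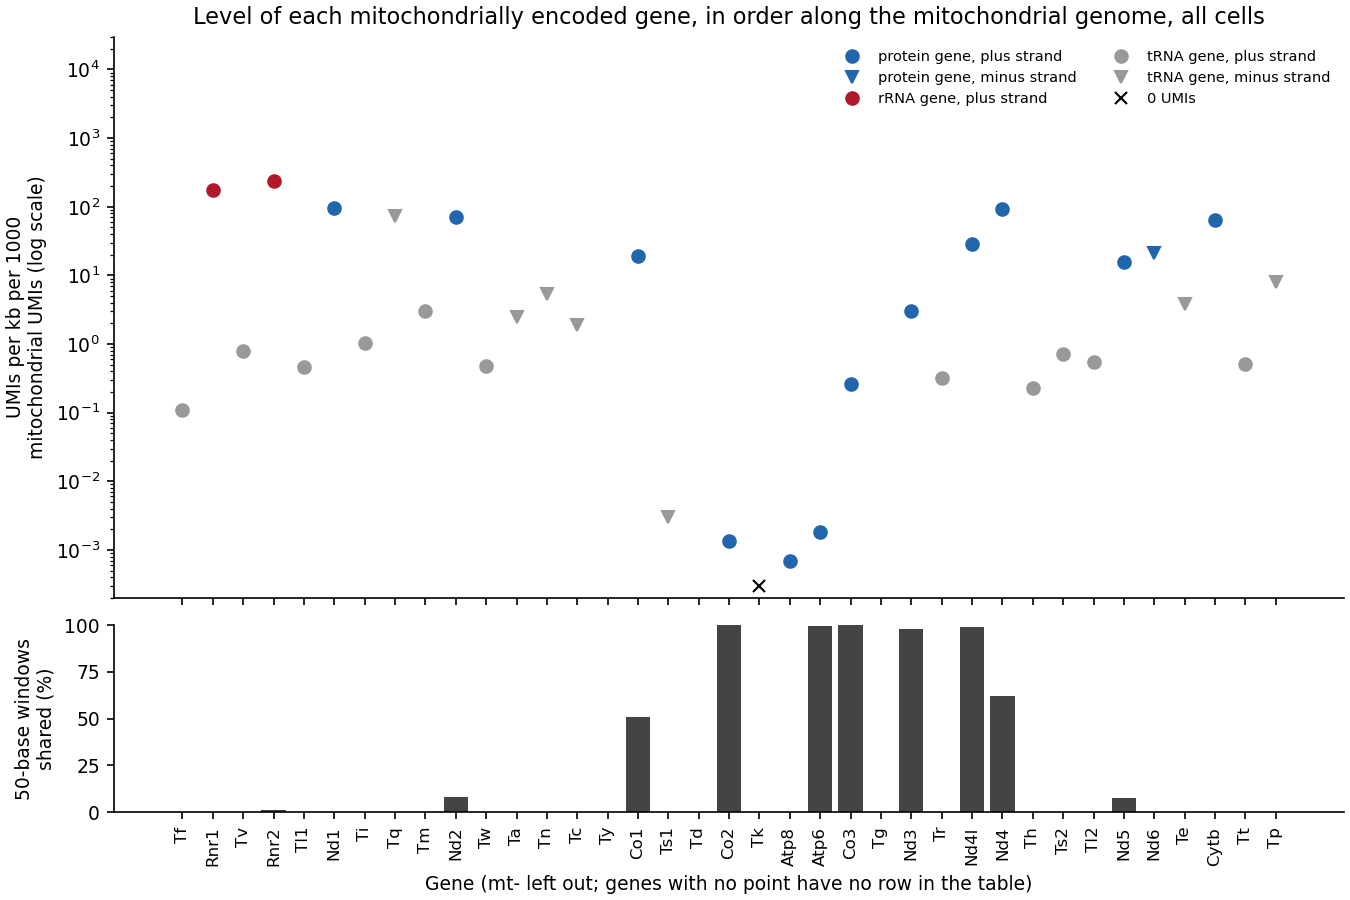
Upper panel: UMIs per kb of gene and 1000 mitochondrial UMIs over all cells (log scale) for each gene in its order on the mitochondrial genome, coloured by class with the strand as symbol. Lower panel: percent of each gene's 50-base windows that also occur in a nuclear transcript. The 2 rRNA genes are highest, and mt-Co2, mt-Atp6 and mt-Co3, with nearly all windows shared, stand below 1.

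Low levels and shared sequence went together in some genes and not in others. All 50-base windows of mt-Co2 also occurred in nuclear transcripts, as did 99.9% of those of mt-Co3, 99.5% of mt-Atp6, 98.8% of mt-Nd4l and 98.0% of mt-Nd3. The share was 62.2% in mt-Nd4, 51.1% in mt-Co1, 8.19% in mt-Nd2, 7.61% in mt-Nd5, 1.04% in mt-Rnr2 and 0 in mt-Nd1, mt-Nd6, mt-Cytb, mt-Rnr1 and mt-Atp8. The 5 genes with at least 90% shared held 2.20% of the protein gene UMIs, but mt-Nd4l was among them at 28.9 per kb, and mt-Atp8, with no shared window, was the lowest protein gene. How reads that match several places were counted is not given in the sources used here.

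The chromosome 2 copies, annotated as unprocessed pseudogenes, carried many UMIs themselves. Gm13341 is 95.9% identical to mt-Co2 and had 7217039 UMIs, 18745.6 for each UMI of mt-Co2. Gm13340 is 97.6% identical to mt-Co1 and had 24257245 UMIs, 193% of the count of mt-Co1. Gm13339 is 96.7% identical to mt-Nd2 over 510 bases and had 1108696 UMIs, 3.61% of the count of mt-Nd2. These 3 copies held 4.34% of all UMIs, and with them the mitochondrial share would be 60.4% in place of 56.0%. In every plate and cell type Gm13341 stood between 1.05 and 2.78 UMIs per 100 mitochondrial UMIs. Gm13340 per mt-Co1 UMI varied with the plate: it ran from 3.29 to 3.92 over the cell types of plate A and from 2.91 to 4.03 on plate B. On plates G and H it ran only from 0.806 to 0.874 and from 0.617 to 0.654. Elsewhere, Gm11407 and Gm4076, 92.4% and 95.2% identical to parts of mt-Nd5, had 579857 and 433912 UMIs, 4.76% and 3.56% of the count of mt-Nd5. Gm10222, 100% identical to mt-Nd4l over 294 bases, had 1929 UMIs, and Gm28661 is not among the genes counted. Levels of mt-Co1, mt-Co2, mt-Nd2, mt-Nd4l and mt-Nd5 below are those of their own rows, without the copies. Counts of mt-Co2, mt-Co3, mt-Atp6 and mt-Atp8 are not read as levels of those messenger RNAs.

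The cell types are the authors' own annotation: cardiomyocytes, the contracting cells (CM), fibroblasts (FB), endothelial cells (EC), macrophages (MP), T cells (T) and a type named GN, which the labels do not spell out. Summed over the cells of a type, mitochondrial genes took 68.6% of the UMIs of 5656 CM, 56.9% of 181 GN, 50.6% of 606 T, 47.0% of 1858 EC, 38.3% of 1413 MP and 34.9% of 1775 FB. In single cells the share ran from 2.68% to 95.4%. It was over 80% in 27.2% of CM, 12.2% of GN, 5.78% of T, 5.01% of EC, 4.39% of FB and 3.47% of MP. Per mouse, CM ran from 44.0% (5w replicate 1) over a median of 67.0% to 88.2% (11w replicate 1) in 14 mice. FB ran from 14.98% over 34.1% to 58.2% in 12 mice, EC from 23.0% over 49.8% to 78.1% in 13, T from 13.9% over 44.8% to 76.1% in 11, and MP from 15.7% over 43.1% to 78.9% in 16. The types therefore overlapped widely across mice.

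Within a mouse the order was steadier. CM stood above FB in 10 of 10 mice, above EC in 12 of 12, above MP in 14 of 14 and above T in 9 of 9, with median differences of 28.2, 17.4, 15.9 and 16.9 percentage points. FB stood below EC in 11 of 11 mice, below T in 10 of 11 and below MP in 10 of 12. The cell types of a mouse often came from different plates, however. Within the same mouse and plate, CM stood above FB in 8 of 11 cases, above EC in 10 of 12, above MP in 16 of 17 and above T in 6 of 8, and the median difference was 18.2, 11.53, 6.83 and 7.31 points. FB stayed below EC in 14 of 15 cases and below T in 11 of 12. MP and FB had no steady order on the same plate, with MP higher in 11 of 16.

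The mitochondrial share differed between plates within each cell type. A plate's cell types lay 6.15 to 38.3 points apart, and the same type lay 52.4 to 74.7 points apart over the plates. CM ran from 12.1% on plate I to 86.8% on plate K, EC from 23.4% to 75.8%, FB from 14.7% to 67.3%, MP from 12.1% to 76.3%, T from 14.6% to 78.7% on the same plates. The 30 cells labelled CM on plate I include 25 of 8w replicate 3, whose cardiomyocyte marker sum stood below that of every other CM sum, and the next lowest CM plate was B, with 22 cells at 39.1%. On plate C all 5 types lay between 42.2% and 48.3%. On plate K the 6 types lay between 67.3% and 86.8%, and on plate L of the same 2 mice between 19.6% and 36.6%. The share of CM among the cells was 77.6%, 82.6%, 93.6%, 93.8% and 86.5% on plates A, C, G, H and J, 43.1% on K, and 15.9% or less on the other 6.

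**Figure D2:**
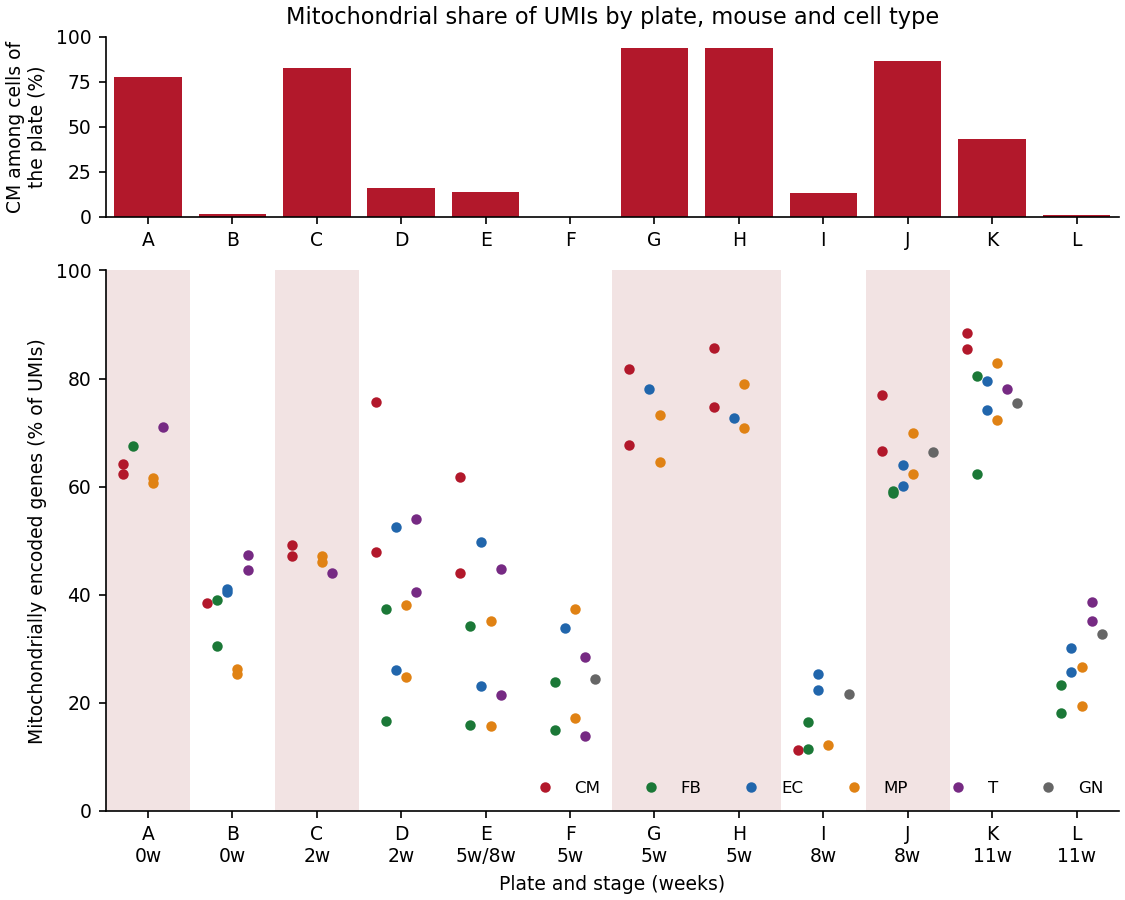
Upper panel: percent of a plate's cells annotated as CM. Lower panel: percent of UMIs in mitochondrially encoded genes, with 1 point per mouse, plate and cell type of at least 10 cells; shaded plates had 50% or more CM. On shaded plates and on plate K the points start at 44.1%, whereas on plates B, F, I and L they reach at most 47.4%. Plates D and E, also poor in CM, span both ranges, from 16.6% to 75.6% and from 15.7% to 61.7%.

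Of the 16 mice, 8 were spread over a plate rich in CM and a poorer one, and a type is counted below where it had at least 10 cells on each. MP of 0w replicate 1 held 60.7% mitochondrial UMIs on plate A and 26.3% on plate B, and MP of 0w replicate 2 held 61.6% and 25.3%. FB of 11w replicate 1 held 80.6% on plate K and 18.1% on plate L. The richer plate was higher in MP of 7 of 7 mice, FB of 5 of 5, EC of 4 of 4, T of 3 of 3 and GN of 2 of 2. The median differences were 36.3 points in MP, 42.6 in FB, 43.6 in EC, 23.7 in T and 43.8 in GN. CM differed in both directions and were higher on the richer plate in 2 of 4 mice. CM of 2w replicate 1 held 49.1% on plate C and 75.6% on the poorer plate D, and the 25 CM of 8w replicate 3 on plate I held 11.3% against 77.0% on J.

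The same sums also differed in the markers of cardiomyocytes (Myh6, Tnnt2, Tnni3, Actc1, Ryr2, Myl2 and Mb). In MP of 0w replicate 1, these 7 genes together had 38970.1 CPM of non-mitochondrial UMIs (counts scaled to a common total) on plate A and 1858 on plate B, against 42920 in the CM of that mouse on plate A. The 7 macrophage markers (Cd68, C1qa, C1qb, C1qc, Csf1r, Adgre1 and Fcgr1) had 1359 on plate A and 9773 on plate B. Over all plates MP ran from 473 to 72223 in the summed cardiomyocyte markers, with 21299 or more on plates A, C, G, H and J and 7858 or less on the others. The 25 CM of 8w replicate 3 on plate I had 845 and thus stood below every other sum of CM, the lowest of which had 10227. Summed over all plates, each type had the highest level of its own markers, with 53833 in CM for the cardiomyocyte list, 17596 in GN, 13752 in T, 12216 in MP, 5937 in EC and 3626 in FB. The part of the marker transcripts in the mitochondrial differences was not tested.

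Whether single members differed by plate kind was tested within mice. UMIs were summed per mouse and plate kind, with plates of 50% or more CM set against the others, and fitted with edgeR's quasi-likelihood test with the mouse as a block. Adjusted p-values below are Benjamini-Hochberg over all genes, with a threshold of 0.05. In MP of 5 mice, 16 of 28 members tested rose on the CM-rich plates and 0 fell, where 10.2% of all genes were called and 6.73% were called higher. In FB of 3 mice, 13 of 28 rose and 0 fell, against 1.8% of all genes called and 1.5% called higher. EC and T had 2 mice each and were not tested at this limit.

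In MP, mt-Nd3 rose by 2.44 on the log2 scale (standard error, SE, 0.29, edgeR adjusted p = 0.000261), mt-Nd2 by 2.48 (SE 0.41, adjusted p = 0.00237) and mt-Co3 by 2.45 (SE 0.43, adjusted p = 0.00298). As above, counts of mt-Co3 are not read as the level of its messenger RNA. mt-Nd4, mt-Nd1 and mt-Nd4l rose by 2.14, 2.10 and 2.83, with SEs of 0.41, 0.40 and 0.54. The other 10 called in MP were mt-Nd6, mt-Nd5, mt-Te, mt-Rnr1, mt-Rnr2, mt-Tn, mt-Co1, mt-Cytb, mt-Tq and mt-Tp, by 1.48 to 2.42. In FB, the rRNAs mt-Rnr2 and mt-Rnr1 rose by 2.82 (SE 0.26) and 2.87 (SE 0.28), mt-Nd1 by 3.14 (SE 0.31), mt-Nd2 by 3.01 (SE 0.32), mt-Nd4l by 3.66 (SE 0.39) and mt-Cytb by 2.84 (SE 0.31). The 13 called in FB were mt-Rnr1, mt-Rnr2, mt-Tq and all protein genes but mt-Co2, mt-Atp6 and mt-Atp8. The rise was thus shared by rRNA and protein genes alike, and its median over the members tested was 1.71 in MP and 2.13 in FB, against -0.01 and -0.29 over all genes.

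Other gene lists were read in the same contrast, in which 6.73% of all genes tested were called higher in MP and 1.5% in FB. All 7 cardiomyocyte markers rose in MP (median log2 change 4.32) and 6 of 7 in FB (4.39), while 5 of 7 macrophage markers fell in MP. Of the nuclear genes for respiratory chain and ATP synthase subunits (nuclear OXPHOS), 68 of 78 rose in MP and 13 of 78 in FB, with medians of 1.96 and 1.57. Of the factors of mitochondrial gene expression 3 of 35 were called higher in MP and 0 of 17 in FB. Of the mitochondrial ribosomal proteins it was 5 of 73 and 0 of 58, and these shares lay near those over all genes. Their medians in MP were 1.46 (27 of 35 positive) and 0.89 (61 of 73), against -0.01 over all genes. In FB they were 0.017 (9 of 17) and 0.24 (35 of 58), against -0.29. Of the mural cell markers 2 of 4 rose in MP (median 2.57) and 0 of 3 in FB (-0.038). None of the 4 erythroid markers was called in either type, and all 4 were negative in both (medians -2.45 in MP and -3.14 in FB). Summed over all cells of a plate, the erythroid markers ran from 3810 CPM of non-mitochondrial UMIs on plate G to 129470 on plate I. The part of these transcripts in the members' rise was not tested. Without 0w replicate 1, 9 members were called in MP, where 599 of 9596 genes were called. Without 0w replicate 2 it was also 9 members, where 637 of 9198 genes were called, against 977 of 9534 with all 5 mice. With sums scaled by the total of all UMIs in place of edgeR's TMM factors, the median of all genes lay at -0.85 in MP and -1.38 in FB, 12 and 10 members were called higher, and 1 member, mt-Tc, was called lower in FB. The same change turned the calls over all genes from 642 higher of 977 to 391 of 1393 in MP and from 102 of 122 to 43 of 290 in FB.

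The ratio of rRNA to protein gene UMIs is a second readout beside the total share. It was 1.22 over all cells, 1.16 in CM, 1.28 in MP, 1.30 in T, 1.36 in EC, 1.45 in FB and 1.48 in GN. Within the same mouse and plate, CM stood below FB in 7 of 11 cases, below EC in 9 of 12, below MP in 12 of 17 and below T in 7 of 8, with median differences of 0.08 or less. Plates differed far more. The cell types of plate C lay between 0.608 and 0.829 rRNA UMIs per protein gene UMI, those of D between 0.915 and 1.03, of G between 0.906 and 1.01 and of H between 0.975 and 1.13. Those of B lay between 1.5 and 1.63, of I between 1.60 and 2.05 and of K between 1.73 and 1.87. The lowest type of plate K thus stood above the highest type of plate C, at 1.73 against 0.829. These ranges sum the mice of a plate, and mice of a plate differed too. On plate D, 2w replicate 1 held 1.01 to 1.10 over its 5 types and 2w replicate 2 held 0.734 to 0.829. Of 12 pairs of mice that shared a plate, 9 differed in the same direction in every type measured in both. In 7 pairs the ranges did not overlap, and no test was made.

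The stages followed the plates. In CM the early mice held 0.711 to 1.31 rRNA UMIs per protein gene UMI (4 mice), the 5w mice 0.882 to 1.45 (5 mice) and the late mice 1.38 to 1.82 (5 mice). In MP the early mice held 0.798 to 1.41 and the late mice 1.44 to 1.89. Early and late mice did not overlap in CM and MP, and they overlapped in EC, FB and T. Plate E allows 1 comparison of stages within a plate: 5w replicate 1 and 8w replicate 1 had 1.402 to 1.74 and 1.38 to 1.44, with the 5w mouse higher in 5 of 5 types.

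Between the rRNAs, mt-Rnr2 had 2.25 UMIs for each of mt-Rnr1, and on several plates the types of a mouse lay close together in this ratio. On plate D, 2w replicate 1 held 2.48 to 2.70 over its 5 types and 2w replicate 2 held 1.93 to 2.23. On plate J, 8w replicate 3 held 2.59 to 2.77 and 8w replicate 2 held 2.19 to 2.30. On plate L, 11w replicate 1 held 2.46 to 2.69 and 11w replicate 2 held 2.02 to 2.17, and on plate K the same mice held 2.11 to 2.17 and 1.83 to 1.95. Of 12 pairs of mice that shared a plate, 8 differed in the same direction in every type measured in both (2 to 5 types), and 7 did not overlap. No test was made. The mt-Rnr2 to mt-Rnr1 ratio ran from 1.72 to 1.96 on plate A and from 2.30 to 2.94 on plates G and H.

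**Figure D3:**
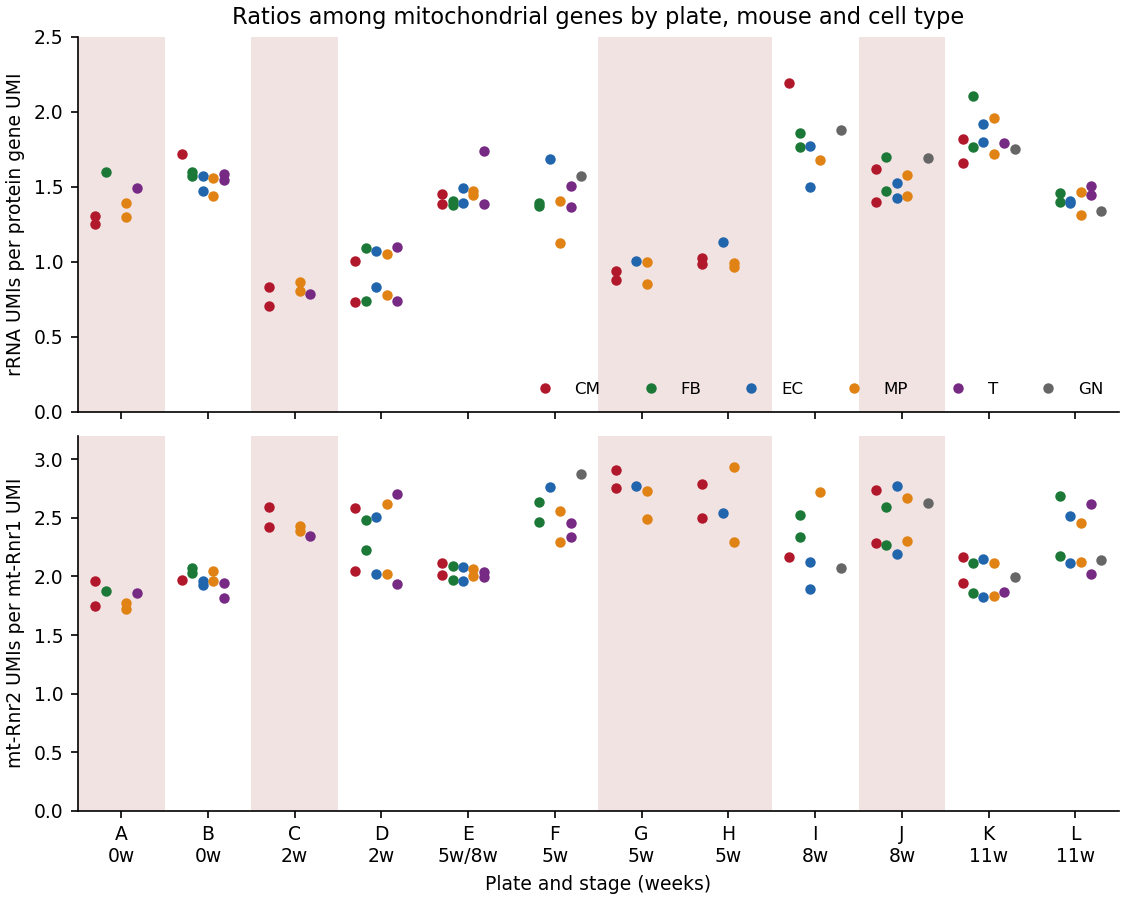
Upper panel: rRNA UMIs per protein gene UMI. Lower panel: mt-Rnr2 UMIs per mt-Rnr1 UMI; 1 point per mouse, plate and cell type of at least 10 cells, shaded plates with 50% or more CM. In the upper panel plate C holds the lowest point, and plates D, J and K split by mouse in the types that both mice had. Plates D, J, K and L split by mouse in the lower panel.

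tRNA genes had 1.64 UMIs per 100 protein gene UMIs over all cells, 1.58 in CM and 1.89 in FB. Within a mouse and plate CM stood above FB in 6 of 11 cases and above MP in 9 of 17, so the types had no steady order. Over the plates the ratio ran from 1.00 on C to 3.48 on I.

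The makeup of the protein genes also differed mostly between plates. The CM-rich plates of 5w, G and H, stood apart from all others: in their 10 sums of a mouse, plate and type, mt-Nd1 made up 28.0% to 34.04% of the protein gene UMIs, against 13.7% to 23.9% in the 83 other sums. mt-Nd2 made up 10.3% to 12.99% against 14.1% to 20.8%, and mt-Cytb 8.44% to 11.8% against 14.5% to 25.8%. These 3 genes did not overlap, whereas mt-Nd4 (23.1% to 30.1% against 22.9% to 36.8%) and the other protein genes did. CM, EC and MP of these plates all showed it. The mice of G (5w replicates 4 and 5) and H (5w replicates 6 and 7) were on no other plate. Plate and mouse therefore cannot be told apart here. On G and H the non-mitochondrial total of a cell was a median of 0.545 and 0.805 of the UMI number that the authors list for it, and 0.481 on K, whereas it equalled that number on the other 9 plates.

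**Figure D4:**
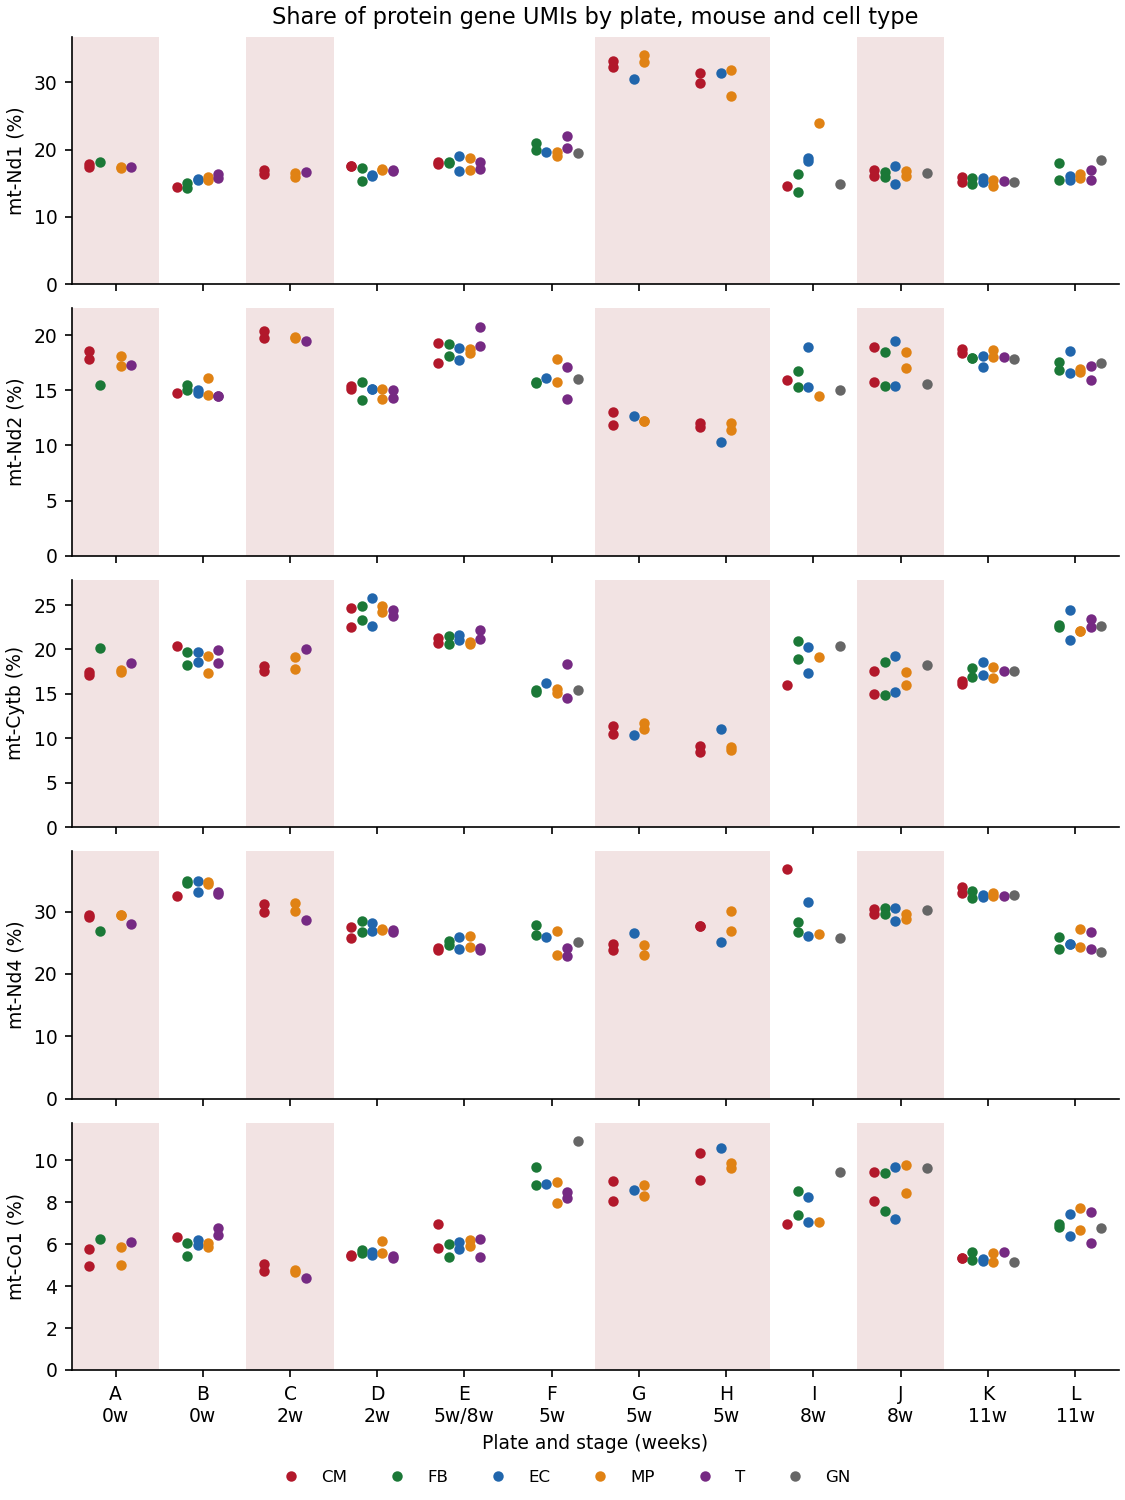
Percent of the UMIs of the 13 protein genes in mt-Nd1, mt-Nd2, mt-Cytb, mt-Nd4 and mt-Co1, by plate and stage; 1 point per mouse, plate and cell type of at least 10 cells, shaded plates with 50% or more CM. Plates G and H stand above all others in mt-Nd1 and below them in mt-Nd2 and mt-Cytb.

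Other plates differed in smaller ways. mt-Nd4 made up 32.6% to 34.9% on plate B and 23.9% to 26.0% on E, for instance, and mt-Co1 4.36% to 5.06% on C and 7.18% to 9.75% on J. With Gm13340 added to mt-Co1, the types of C had 12.8 to 16.9 per 100 protein gene UMIs and those of J 26.1 to 31.1. The order of plates A and H turned, however: CM had 5.25% and 9.61% by the own row, but 25.8 and 15.9 with the copy. At 5w, mt-Nd1 made up 18.2% to 33.2% in CM against 16.5% to 17.8% in early mice, 16.9% to 31.4% against 15.5% to 16.3% in EC, 17.99% to 20.96% against 14.7% to 17.3% in FB and 17.04% to 34.04% against 16.3% to 16.97% in MP. These 5w and early values did not overlap, and those of T did. Without plates G and H, the difference of medians in mt-Nd1 was 0.916 points in CM in place of 14.03, 2.39 in EC in place of 9.17 and 2.35 in MP in place of 11.3.

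Differences between types within a plate were small beside these. Against FB of the same mouse and plate, CM had a higher share of mt-Nd6 in 10 of 11 cases (median difference 0.35 points) and of mt-Nd1 in 9 of 11 (0.22 points), and a lower share of mt-Nd4l in 9 of 11. mt-Nd4l was also lower in CM than in EC in 10 of 12 cases and than in T in 7 of 8. mt-Nd3 was higher in CM than in MP in 14 of 17 cases and than in T in 7 of 8, by medians of 0.01 and 0.02 points.

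Subclusters, the authors' finer groups within a type, were set against the rest of their type in the same mouse and plate. Since the clustering was made on these cells, the values are descriptions. CM9 held more mitochondrial UMIs than the other CM in 8 of 8 mouse-plate pairs (median 6.84 points) and CM11 in 4 of 4 (5.76 points), and summed over the subcluster these reached 83.9% and 81.7%. CM2 held less in 7 of 8 (a median difference of -11.4 points), CM7 in 8 of 9 (-4.24) and CM4 in 9 of 11 (-5.04). CM2 also had fewer rRNA UMIs per protein gene UMI than the other CM in 8 of 8. In EC, EC6 held more in 7 of 7 (9.14 points) and EC4 less in 6 of 6 (-9.54). In MP, MP3 held more in 5 of 5 (4.55 points), while MP7 held less in 5 of 5 (-4.66) and MP8 in 3 of 3 (-9.37).

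Comparisons between stages asked whether mitochondrial genes of a type differed between early, 5w and late mice. Sums per mouse and type were fitted with edgeR's quasi-likelihood test in 1 fit per type over all stages. Of the 34 members, 29 to 31 passed the low-count filter. Some that passed had few UMIs: mt-Co2 had 246 in CM, and mt-Atp6 had 96 in EC, 52 in MP and 35 in FB. In 9 of the 10 comparisons (5 types, late and 5w each minus early) edgeR called 0 members. Over all genes, these 9 called 1 of 15893 in CM late minus early and 0 in each of the rest. In the tenth, T cells at 5w, 8 of 29 fell and 0 rose, where 0.215% of all 12109 genes were called, all of them lower.

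In T cells, mt-Cytb had 35957, 61055, 77259 and 54597 CPM (here on TMM-scaled totals of all UMIs) in the 4 early mice. It had 10120.3, 5062 and 9981 in the 3 mice at 5w. The 5w values were all below the early ones, and mt-Cytb fell by 2.75 on the log2 scale (SE 0.45, edgeR adjusted p = 0.00506). mt-Nd4 had 59368 to 98341 CPM early and 6319.7 to 16623 at 5w, and fell by 2.80 (SE 0.47, edgeR adjusted p = 0.00506). mt-Nd5, mt-Nd2, mt-Nd1 and mt-Nd6 fell by 2.38, 2.39, 2.27 and 2.37, with SEs of 0.47 to 0.49 and adjusted p-values of 0.0218 to 0.0296. The rRNAs mt-Rnr2 and mt-Rnr1 completed the 8, with decreases of 2.10 and 2.17 (edgeR adjusted p = 0.0301 and 0.0322). The mitochondrial share of T cells was 41.5% to 60.7% in early mice and 13.9% to 28.4% at 5w.

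Values of other genes moved with this result. The summed cardiomyocyte markers in T cells were 7845 to 21275 CPM of non-mitochondrial UMIs early and 473 to 4580.1 at 5w, 2 of these 7 genes fell, and their median log2 change was -3.12. Of nuclear OXPHOS genes 2 of 78 fell and 73 were negative, with a median of -1.23. The 5w T cells came from plates E and F and the early ones from A to D, so plate and stage cannot be told apart. Only 2 members were called in T cells without 5w replicate 1, without 5w replicate 2, with RLE factors, with totals of all or of non-mitochondrial UMIs as the scale, and with DESeq2. The shares of all genes called under these settings are not set beside this count.

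In CM, the type with the most mitochondria, all 31 members tested had a positive log2 change in late minus early, with a median of 1.83 against -0.06 over all genes. Of these 31, edgeR called 0 members, where 0.00629% of all genes were called. By unadjusted p under 0.05 it was 29, against 9.37% of all genes, and DESeq2 called 15 members, against 1.27% of all genes. mt-Nd4 had 60298, 56524, 51151 and 37334 CPM in the early mice 0w replicates 1 and 2 and 2w replicates 1 and 2. It had 33638, 71129 and 107603 in the mice of 8w and 407352 and 295048 in those of 11w. The late mice thus ran from below the early ones to well above them, and the log2 difference was 1.63 (SE 0.62, edgeR adjusted p = 0.444). The member with the highest difference was mt-Ts2 at 2.83 (SE 0.71) and the lowest was mt-Te at 0.80 (SE 0.51). The lowest late mouse, 8w replicate 1, was the only one on plate E, and without the plate E mice 21 of 31 members were called higher, against 0.823% of all genes. With CM taken only from plates of at least 40% CM, a choice made after seeing the data, 26 of 31 were called higher, against 1.34%.

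For CM at 5w minus early the median of the 31 members was 1.72 and 30 were positive. edgeR called 0, with 22 by unadjusted p under 0.05 (8.92% of all genes), and DESeq2 called 15 (1.7% of all genes). With no low-count filter edgeR called 21 (1.02%), and without 5w replicate 1 it called 15 (0.359%). mt-Ts2 had the highest difference, 3.44, and mt-Co2, whose counts are not read as a level of its messenger RNA, the lowest, -0.17. This direction rested on plates G and H: without them the only 5w mouse with CM was replicate 1, the median was -0.97 and 6 of 31 were positive. At 5w, 4 of the CM mice held 67.6% to 85.7% mitochondrial UMIs on plates G and H, and replicate 1 held 44.0% on plate E.

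The nuclear partners of the mitochondrial genes did not show the same direction in CM. In late minus early, 73 of 79 nuclear OXPHOS genes were negative, with a median of -0.40 and 0 called. The 3 with the smallest p were Uqcrc1, Cyc1 and Uqcrc2, all of complex III, at -1.16 (SE 0.31), -1.11 (SE 0.31) and -0.89 (SE 0.30). Of 46 factors of mitochondrial gene expression 38 were negative (median -0.73, 0 called), led by Tufm, a translation elongation factor, at -1.53 (SE 0.38). Tefm, the mitochondrial transcription elongation factor, stood at -2.39 (SE 0.99) and Fastkd5, an RNA processing factor, at -5.16 (SE 1.60) with under 3 CPM in all these mice. Of 74 mitochondrial ribosomal protein genes 54 were negative (median -0.37, 0 called), with Mrps30 at -1.62 (SE 0.64), Mrps5 at -1.19 (SE 0.57) and Mrps18b at -4.54 (SE 1.79), the last at about 1 CPM or less. The cardiomyocyte markers in CM were negative in 6 of 7, with a median of -0.85. The difference between the mitochondrial and the nuclear genes was not tested.

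In EC, MP, FB and T the remaining comparisons called 0 members and 0 of all genes tested (14532, 13752, 15427 and 12109). In late minus early, 28 of 30 members were positive in EC (median 0.98), 30 of 30 in MP (0.93), 26 of 30 in FB (0.43) and 22 of 29 in T (0.26, where the median of all genes was -0.75). By unadjusted p under 0.05 there were 7 in EC (9.43% of all genes), 3 in MP (7%), 5 in FB (9.81%) and 0 in T (12.5%), and DESeq2 called 0 members in each. At 5w minus early 28 of 30 were positive in EC (1.37) and 29 of 30 in MP (1.59), whereas in FB 5 of 30 were (-1.03). Without plates G and H the 5w medians were -0.64 in EC and -0.81 in MP, and with at least 20 cells EC stood at -0.93. With CM only from plates of 40% or more CM cells and other types only from the rest, the medians were -0.63 in EC at 5w and -0.74, -0.51, -0.96 and -0.78 in EC, MP, FB and T late. At 5w minus early on all plates the unadjusted counts were 13 in EC (10.8% of all genes), 14 in MP (7.15%) and 15 in FB (12.4%). DESeq2 called 2, 3 and 2 members in these comparisons on all plates, counts given without the share over all genes.

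The highest and lowest log2 differences in late minus early were mt-Nd3 at 1.80 and mt-Tc at -0.95 in EC, mt-Tv at 1.86 and mt-Te at 0.16 in MP, mt-Nd3 at 1.16 and mt-Tc at -0.95 in FB, and mt-Th at 1.12 and mt-Co3 at -0.43 in T. At 5w minus early they were mt-Ts2 at 2.28 and mt-Atp6 at -1.48 in EC, mt-Tv at 3.30 and mt-Atp6 at -0.08 in MP, and mt-Atp6 at 1.58 and mt-Cytb at -1.80 in FB. mt-Atp6 rested on few UMIs in each, and counts of mt-Atp6 and mt-Co3 are not read as levels of their messenger RNAs.

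The direction in late non-myocytes changed with the plates used. With FB, EC, MP and T taken only from plates of under 40% CM, a choice made after seeing the data, the median late difference was -0.96 in FB, -0.74 in EC, -0.51 in MP and -0.78 in T, and edgeR called 0 members in each. On that choice 0 of 29 members were positive in FB, 6 of 30 in EC, 3 of 29 in MP and 2 of 29 in T.

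**Figure D5:**
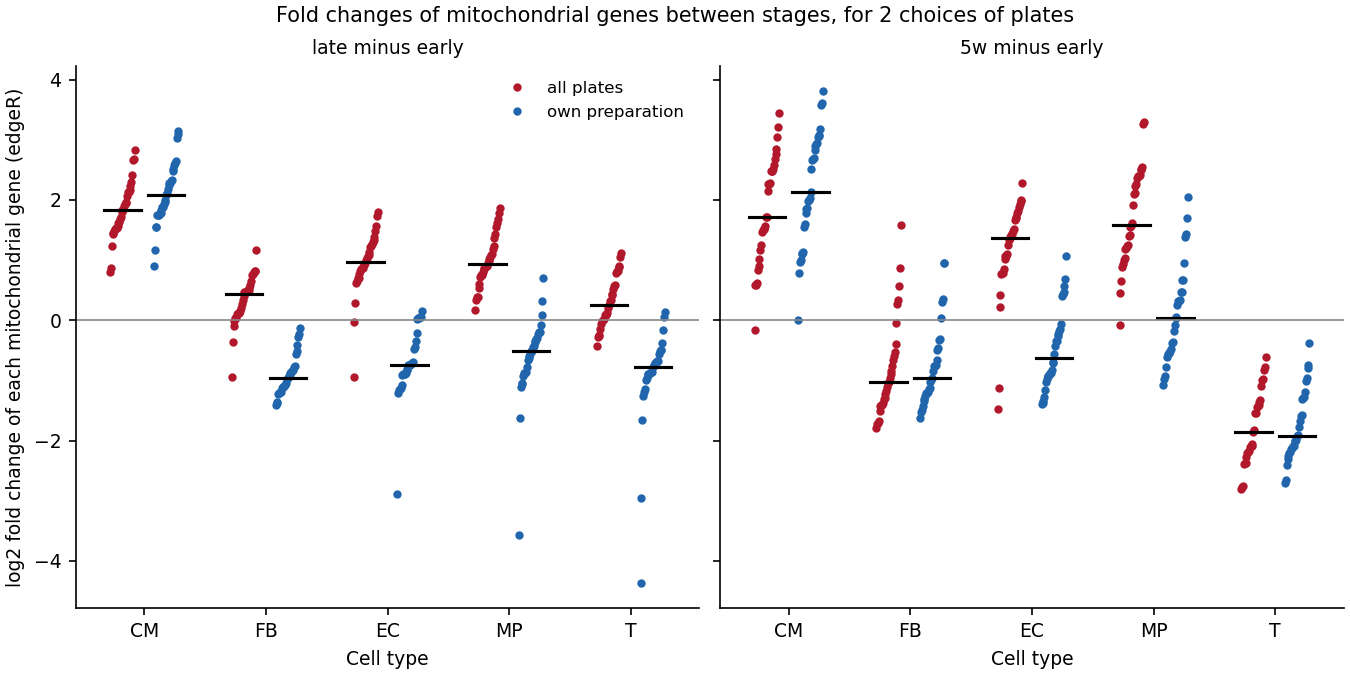
log2 fold change (edgeR) of each mitochondrial gene tested, by cell type, for late minus early (left) and 5w minus early (right); red points use all plates, blue points use CM from plates with 40% or more CM and other types from the rest, and bars are medians. In late minus early the medians of FB, EC, MP and T are above 0 in red and below 0 in blue, whereas CM stay above 0. The key names the blue choice own preparation, which refers to the share of CM alone.

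Within plate E the single mouse at 8w stood above the single mouse at 5w in all 5 types. The shares were 61.7% against 44.0% in CM, 49.8% against 23.0% in EC, 44.8% against 21.5% in T, 35.2% against 15.7% in MP and 34.3% against 15.8% in FB. With 1 mouse per stage there is no test. Mice of 1 stage differed by as much on plate D, where 2w replicate 1 stood above replicate 2 in 5 of 5 types, at 37.4% to 75.6% against 16.6% to 47.8%.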

How the data were processed

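The authors deposited raw UMI counts for each gene in each cell, without normalization, and a cell annotation with mouse, type, subcluster and plate. The builds mm10 and GRCh37 and the tools STAR (2.5.2b), Subread (1.4.6-p1) and featureCounts are named, with no settings, per the submitters' processing notes. Totals per mouse ran from 3441317 to 121599183 UMIs. Shares of mitochondrial UMIs have 95% binomial intervals within 0.384 percentage points for every sum used, which cover counting error only.

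Cells are not replicates. Counts were summed per mouse and type (at least 10 cells) and fitted with edgeR 4.0.16 in R 4.3.3 (filterByExpr, TMM, robust glmQLFit, two-sided glmQLFTest), after a test on simulated data, with DESeq2 1.42.0 as an alternative. The labels do not say that each mouse is a separate litter or operation day, so p-values rest on the spread between these mice only. The mice of 0w shared plates A and B, those of 2w C and D, and those of 11w K and L. The spread within these stages therefore holds no difference between plates, whereas the stage comparisons set different plates against each other. Of 11492 cells, 3 had no type. Doublets were not called. Plates share well names (3555 of 4660 wells were used on more than 1 plate), but 0 cell names were repeated. Copies were found with BLAST 2.17.0 (90% identity or more). Sums over members were described without a test.

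The members and lists were chosen with earlier results of these data known. All members are accounted for; in each fit up to 6 called members by smallest p, or else the highest and lowest, are named, and of each nuclear list 3 by smallest p in CM.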

Additional observations from a re-analysis of the deposited data

Results flagged for a closer look

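Shares and ratios were checked in types and stages with at least 4 mice, which were CM, EC and MP at 5w. In these 33 sets of values, 6 values lay far from the rest of their set. Chance marks about 1 in 20 sets, but sets from the same mice are linked, so the 6 cannot be compared with that rate. Of the 6 values, 5 belong to CM of 5w replicate 1. It was the only one of 5 CM mice at 5w on plate E, while the other 4 were on plates G and H. It had 1.45 rRNA UMIs per protein gene UMI against 0.882 to 1.02 in the others. In the same sum mt-Nd1 made up 18.2% of protein gene UMIs against 29.9% to 33.2%, mt-Nd2 17.5% against 11.7% to 12.99%, mt-Cytb 20.7% against 8.44% to 11.4% and mt-Nd6 3.17% against 1.61% to 1.81%. The other value is MP of 5w replicate 3 on plate F, where mt-Nd5 made up 10.5% of protein gene UMIs against 6.21% to 7.63% in the other 6 mice.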

How the results depend on the processing

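Main values of the comparisons named here are the log2 medians of the report and differences of medians in mitochondrial share of 15.2 points (CM 5w), 11.9 (EC 5w), 10.3 (EC late), -19.9 (FB 5w), 0.269 (FB late), 24.9 (MP 5w), 24.8 (MP late) and 3.96 (T late), each minus early. Without plates G, H and K, whose totals differ from the authors' UMI numbers, the median log2 change of the members was -1.01 in CM 5w, -0.62 in EC 5w, -0.35 in EC late, -0.79 in FB late, -0.74 in MP 5w, -0.53 in MP late and -0.96 in T late. Without G and H alone it was -0.97, -0.64 and -0.81 in CM, EC and MP 5w. The choice called own preparation took CM only from plates of 40% or more CM and other types from the rest. It was set by the share of CM alone, not by the digestion protocol of a plate. Like the omission of G and H, it was made after seeing the data. By own preparation the median log2 change was -0.63 in EC 5w, -0.74 in EC late, -0.96 in FB late, -0.51 in MP late and -0.78 in T late. It was -0.93 in EC 5w with at least 20 cells and -0.070 in T late without factors. The cause was not tested.

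The mitochondrial share followed: without G, H and K, or without G and H, the difference was -15.6 in CM 5w, -13.0 in EC 5w and -22.4 in MP 5w, and without all 3 it was -4.34 in MP late and -10.2 in T late. By own preparation it was -12.4 in EC 5w, -15.0 in EC late, -15.9 in FB late, -8.66 in MP 5w and -2.73 in MP late. With at least 20 cells it was -18.4 in EC 5w and -12.4 in MP 5w, and with rRNA left out -11.6 in FB 5w. The 5w difference in mt-Nd1 share was 0.916 in CM, 2.39 in EC and 2.35 in MP under either omission, 0.963 in EC and 2.61 in MP with at least 20 cells, 14.5 in EC without plate E, 2.42 in EC and 2.60 in MP by own preparation, and 2.57 in FB and 1.16 in T as a median over cells. In all 30 alternatives of the rRNA to protein ratio the late minus early difference moved by less than 1 SD between mice.

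Counts of called members moved as follows. Most stand here without the share of all genes called and are not read as results about the members. DESeq2 called 15 in CM 5w and CM late, 2 in EC 5w, FB 5w and T 5w, and 3 in MP 5w. With no low-count filter edgeR called 21 in CM 5w and CM late, 8 in EC 5w, 6 in EC late, 11 in FB 5w and 2 in FB late. In CM late it called 2 without factors, 3 without G and H, 21 without plate E and 26 by own preparation, and in CM 5w 22 and 24 by the last 2. T 5w had 2 with RLE factors, with all UMIs and with non-mitochondrial UMIs as totals. Leaving out 1 mouse gave 0 to 15 in CM 5w and 0 to 7 in CM late (highest without 5w replicate 1), 2 to 11 in T 5w, and 9 to 16 in MP and 11 to 13 in FB by plate kind. It gave a T late median of -0.23 (without 11w replicate 2) to 0.56, shares of 10.9 to 26.0 points in MP late, 11.3 to 28.1 in MP 5w, -7.65 (without 5w replicate 5 or 7) to 31.4 in EC 5w, -3.86 (without either 11w mouse) to 11.8 in T late and -1.52 to 9.39 in FB late (below 0 without 0w replicate 2, 2w replicate 2 or either 11w mouse), and an EC 5w mt-Nd1 difference of 3.82 to 14.5.

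Replicate numbers did not pair the mice: of 21 pairs in MP, the correlation of deviations was over 0.1 in 1 (range -0.0412 to 0.205). With the replicate number as a block the medians were -0.94 in CM 5w, -0.52 in EC 5w and -1.12 in MP 5w, where 11 members were called lower, and mt-Ts2 in CM 5w and mt-Te in MP late stood at -1.14 and -0.013.

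Single members crossed 0. mt-Ts2 in CM 5w was -1.22 without G, H and K and -1.18 without G and H, and in EC 5w -0.10 with at least 20 cells. mt-Te was -0.61 in CM late and -0.47 in MP late without factors, -0.078 and -1.31 without G, H and K, and -0.88 in MP late by own preparation. mt-Atp6 in MP 5w was 0.29 with RLE factors and 0.41 with DESeq2, mt-Co2 in CM 5w 0.040 without plate E and 0.0091 by own preparation, and mt-Co3 in T late 0.037 with RLE factors and 0.035 with DESeq2. By own preparation mt-Nd3 was -0.20 in EC late and -0.13 in FB late, where it was -0.26 without G, H and K. mt-Th in T late was -1.87 without plate E and -2.95 by own preparation. Leaving out 1 mouse gave mt-Atp6 in MP 5w -0.23 to 0.32, mt-Co2 in CM 5w -0.53 to 0.063, mt-Te in MP late -0.12 to 0.34 and mt-Th in T late -1.87 to 1.49.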

Other observations

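The annotation also gives each cell a label API or PI, whose meaning is not stated in the sources used here. In 65 sums of a mouse, plate and type that held both, PI cells had the higher mitochondrial share in 37 and API cells in 28. Of 19 mouse-plate pairs with at least 2 such types, 15 had all types in 1 direction.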
